A study of Mus musculus with 16 samples.

Results

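Immediate early genes are transcribed within minutes of synaptic activity or growth factor signalling, and their transcripts decay quickly. The 10 genes described here were taken by name as a set: Junb, Fos, Fosb, Egr1, Egr3, Arc, Nr4a1, Dusp1, Ier2 and Homer1. They are 10 of the 21627 genes with a read in the annotated or spliced classes of the long-read data. Over every class, they hold 131 of its 815498 isoform entries, some of them without a read here, and 3579 reads. The reads came from full-length cDNA sequenced on the PacBio platform, in which each read comes from 1 transcript molecule copied by PCR. Several reads can come from the same molecule. The samples were cortex and striatum from male mice of 3 months that carried the R6/2 transgene or were non-transgenic (NT), with 4 samples in each of the 4 groups. R6/2 is a model of Huntington's disease that expresses exon 1 of the human huntingtin gene with an expanded CAG repeat, on a mixed B6CBA background. It carries a fragment of the gene as a transgene rather than the full-length mutant gene. The mice were killed by an overdose of pentobarbital and phenytoin and perfused before the left hemisphere was dissected. Each sample is whole dissected tissue, so in these data fewer cells of a type and less RNA per cell cannot be told apart.

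Induction of these genes runs through calcium and ERK signalling to transcription factors already present in the cell, chiefly CREB, which binds the cAMP response element (CRE), and SRF, which binds the CArG box. Their products fall into a few kinds. Junb, Fos and Fosb make subunits of the AP-1 transcription factor, Egr1 and Egr3 are zinc finger transcription factors, and Nr4a1 is an orphan nuclear receptor. Arc is a synaptic protein that acts in the removal of AMPA receptors from the membrane, Dusp1 is a phosphatase that inactivates MAP kinases, Ier2 is a nuclear protein, and Homer1 is a scaffold that ties metabotropic glutamate receptors to IP3 receptors and Shank. In the striatum several of them respond to dopamine and cortical input in the spiny projection neurons, the cells most affected in Huntington's disease.

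The promoters of Junb, Fos, Homer1 and Dusp1 are shown because Junb, Homer1 and Dusp1 carry the genotype differences below and Fos is the classical member of the family. The letters are those of RefSeq (GRCm38.p6), up to 250 bases ending just before the transcription start, and capitals mark the CRE core TGACG on either strand, or the full palindrome TGACGTCA, which holds that core on both strands. The Junb promoter is chr8:84978749-84978998 (minus strand), the Fos promoter chr12:85473640-85473889 (plus strand), the upstream Homer1 promoter chr13:93303507-93303756 (plus strand) and the Dusp1 promoter chr17:26508520-26508722 (minus strand, 203 bases, ended before an annotated exon).
Junb: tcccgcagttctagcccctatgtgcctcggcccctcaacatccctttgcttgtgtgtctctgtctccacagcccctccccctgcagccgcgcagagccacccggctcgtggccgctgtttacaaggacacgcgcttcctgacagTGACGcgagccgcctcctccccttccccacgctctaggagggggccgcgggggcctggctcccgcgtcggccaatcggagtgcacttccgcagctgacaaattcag
Fos: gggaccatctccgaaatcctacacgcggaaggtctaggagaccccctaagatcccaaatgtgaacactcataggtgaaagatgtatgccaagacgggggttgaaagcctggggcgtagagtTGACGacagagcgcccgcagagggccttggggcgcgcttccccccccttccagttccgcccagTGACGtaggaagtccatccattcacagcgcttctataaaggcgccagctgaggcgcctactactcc
Homer1: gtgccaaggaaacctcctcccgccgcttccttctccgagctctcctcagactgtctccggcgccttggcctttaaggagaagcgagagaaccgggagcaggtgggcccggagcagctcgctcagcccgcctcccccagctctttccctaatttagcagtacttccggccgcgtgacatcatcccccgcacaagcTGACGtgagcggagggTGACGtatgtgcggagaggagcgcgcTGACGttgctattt
Dusp1: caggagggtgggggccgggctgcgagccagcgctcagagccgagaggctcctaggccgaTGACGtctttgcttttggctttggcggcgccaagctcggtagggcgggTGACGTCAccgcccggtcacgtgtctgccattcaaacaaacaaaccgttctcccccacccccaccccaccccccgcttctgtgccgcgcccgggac
The search covered 7 promoters of these genes, belonging to Junb, Fos, Fosb, Nr4a1, Dusp1 and, with 2 starts, Homer1. No promoter of Egr1, Egr3, Arc or Ier2 was searched, so the counts that follow do not cover those genes. The core TGACG stood in 6 of the 7, against 17.8% of all 32851 mouse promoters of that length, and the exception was the downstream Homer1 start. The full CRE stood in the Dusp1 promoter alone, 143 to 136 bases before the RefSeq start, against 1.55% of all promoters. The printed Dusp1 letters stop short of that start. The Fos promoter also held TATAAA, 33 to 28 bases before its start, a match found in 12.4% of all promoters. Neither the AP-1 site TGANTCA (6.75% of all promoters) nor the CArG box (1.47%) was matched in these windows, searched on both strands.

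In the mm10 build (GRCm38, GENCODE M21) the genes lie on 8 chromosomes. Junb (ENSMUSG00000052837) is at chr8:84974484-84978718 on the minus strand and Ier2 (ENSMUSG00000053560) at chr8:84661331-84662852 on the minus strand. Fos (ENSMUSG00000021250) is at chr12:85473890-85477273, plus strand, and Fosb (ENSMUSG00000003545) at chr7:19302696-19310051, minus strand. Egr1 (ENSMUSG00000038418) is at chr18:34859823-34864984 and Egr3 (ENSMUSG00000033730) at chr14:70077203-70082614, both on the plus strand. Arc (ENSMUSG00000022602) is at chr15:74669083-74672570, minus strand, and Nr4a1 (ENSMUSG00000023034) at chr15:101254269-101274795, plus strand. Dusp1 (ENSMUSG00000024190) is at chr17:26505590-26562128, minus strand, and Homer1 (ENSMUSG00000007617) at chr13:93299635-93405129, plus strand.

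Cortical samples had 252885 to 808814 reads and striatal samples 317050 to 1496196, and 4 striatal samples (NT 1, NT 2, R6/2 2 and R6/2 3) came as 2 count files that were summed. In the 40 pairs of a gene and such a sample, no difference between the 2 files in the gene's share of reads was detected (lowest exact binomial p = 0.0669, unadjusted). Pairs with few reads could hardly have shown one. Levels are given as CPM, the reads of a gene scaled to the same library total in each sample after TMM normalization, and 3 reads, the smallest number treated as detectable, corresponded to 4.28 to 14.8 CPM in the cortex and 2.22 to 11.9 CPM in the striatum. Junb, with 1317 annotated reads, was far above that floor, whereas Fosb (12 reads) and, in the cortex, Arc and Nr4a1 were at or near it. The striatal projection neuron markers checked the dissection: all 9 were called higher in the striatum than in the cortex of NT mice. Of all 7390 genes tested in that comparison, 1165 were called higher. No marker gene used here was at 0 in all samples of a region.

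The reads were classified by TALON as known isoforms, incomplete splice matches (ISM, reads that match part of a known isoform), new combinations of known splice sites (NIC), isoforms with a new splice site (NNC) and the genomic class, which holds reads with no spliced match to a known isoform. The main counts take the first 4 classes. For the zinc finger genes this choice removed nearly all reads: 483 of the 498 Egr1 reads (97.0%, 95% Wilson interval 95.1 to 98.2) and 206 of the 220 Egr3 reads (93.6%, 89.6 to 96.2) were genomic. These reads had 1 exon, and Egr1 and Egr3 are therefore described from counts that include the genomic class. The other genes lost few reads by comparison, from 4 of 1321 (0.303%) for Junb to 28 of 173 (16.2%) for Arc and 107 of 618 (17.3%) for Homer1, and none of the 104 reads of Nr4a1. Fosb, with 3 of 15 reads genomic, is too sparse for a share to be read. These intervals cover counting error alone, since reads of 1 PCR product are not independent molecules.

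**Figure D1:**
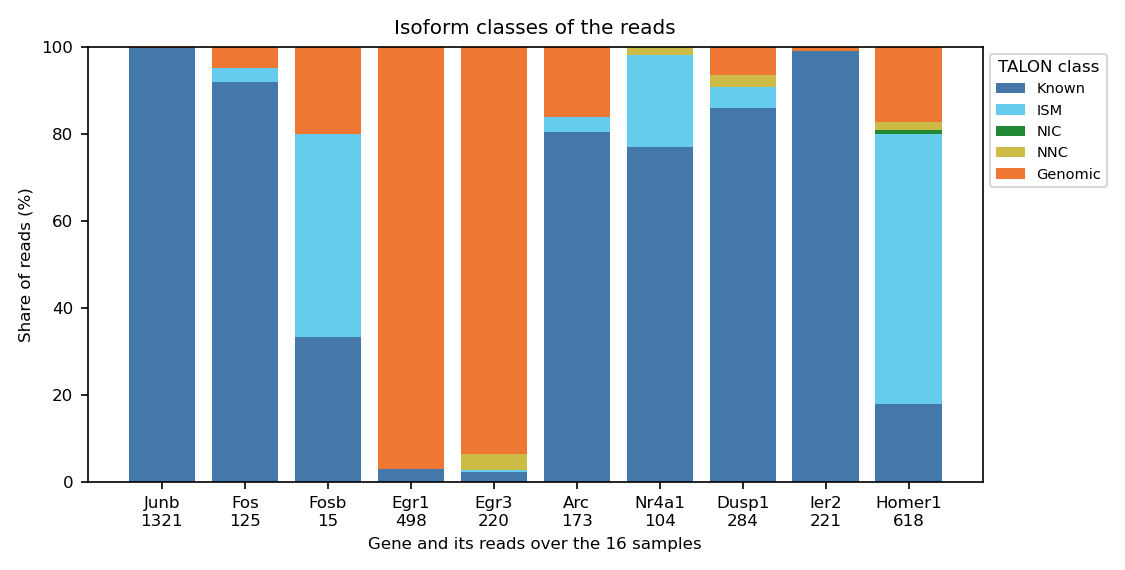
Share of each gene's reads (percent, y axis) in each TALON class over the 16 samples, with the number of reads under each gene name on the x axis. Egr1 and Egr3 lie almost wholly in the genomic class (97.0% and 93.6%), Homer1 mostly in the ISM class, and Junb and Ier2 almost wholly in the known class.

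The first question was whether the genes differed between R6/2 and NT mice in the cortex. Of the 3 members that passed the filter on low counts, Junb and Homer1 were lower and none was called higher. Junb was at 164, 207, 351 and 484 CPM in the 4 NT samples and at 78.3, 117, 91.0 and 125 CPM in the 4 R6/2 samples. Every R6/2 sample lay below every NT sample, although the NT samples themselves spread widely (301.3 ± 145.9 CPM against 102.7 ± 21.8, mean ± SD, n = 4). The difference was −1.55 on the log2 scale (SE 0.28, adjusted p = 0.0023, edgeR quasi-likelihood test with Benjamini-Hochberg adjustment over all genes).

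Homer1 was at 102, 101, 25.4 and 101 CPM in the NT cortex and at 30.6, 44.6, 36.1 and 26.4 CPM in the R6/2 cortex. Sample NT 3, with 5 Homer1 reads, was the lowest of all 8, so the groups overlapped. The difference was −1.33 (SE 0.30, edgeR adjusted p = 0.014). That call rested on few samples, because without NT 2, NT 4, R6/2 3 or R6/2 4 the adjusted p was 0.051, 0.059, 0.052 and 0.052. Ier2 was at 67.7, 22.5, 66.1 and 70.6 CPM in NT and at 24.8, 31.8, 36.1 and 28.8 CPM in R6/2. All NT samples but NT 2 were above the R6/2 range. Its difference of −0.83 (SE 0.32, edgeR adjusted p = 0.17) did not pass, and without NT 2 it was −1.14 with an adjusted p of 0.027.

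These 3 genes were the ones that passed the filter on low counts, and the 2 that were lower stand beside 2.81% of all 6121 genes tested called lower in the R6/2 cortex. Without overlap between groups, Junb was lower, as were 6.47% of the genes tested. With the genomic class added, 5 of the genes passed the filter and again 2 were lower, Junb and Homer1, against 2.95% of 7011 genes. Junb was then lower without overlap, as were 6.42% of all genes. Egr1 was at 47.1, 92.1, 102 and 106 CPM in NT and at 69.1, 66.9, 57.7 and 63.3 CPM in R6/2. The R6/2 values lay inside the NT range, and the difference of −0.42 (SE 0.23, edgeR adjusted p = 0.34) did not pass. Egr3 was at 32.3, 20.9, 71.1 and 28.9 CPM in NT and at 24.2, 1.91, 19.7 and 10.9 CPM in R6/2. Its groups overlapped through a single R6/2 sample, with a difference of −1.16 (SE 0.44, edgeR adjusted p = 0.15).

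Fos, Dusp1, Arc, Nr4a1 and Fosb did not pass the filter in the cortex. Fos had 6, 6, 10 and 25 reads in the NT and 5, 10, 14 and 11 reads in the R6/2 cortex. Dusp1 had 7, 11, 1 and 16 reads against 6, 4, 10 and 7. Arc had 2, 5, 0 and 11 reads against 1, 3, 1 and 1. All 3 overlapped between genotypes. Nr4a1 had between 0 and 12 reads per sample in NT and between 1 and 5 in R6/2. With no filter, none of these 4 passed: Arc was at −1.89 (SE 0.71, edgeR adjusted p = 0.17), Fos at −0.66 (SE 0.37, adjusted p = 0.54), Dusp1 at −0.78 (SE 0.43, adjusted p = 0.54) and Nr4a1 at −0.85 (SE 0.59, adjusted p = 0.66). Fosb had no read in any NT cortex and 1 or 2 reads in each R6/2 cortex, all at or below the 3-read floor, so no fold is given.

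**Figure D2:**
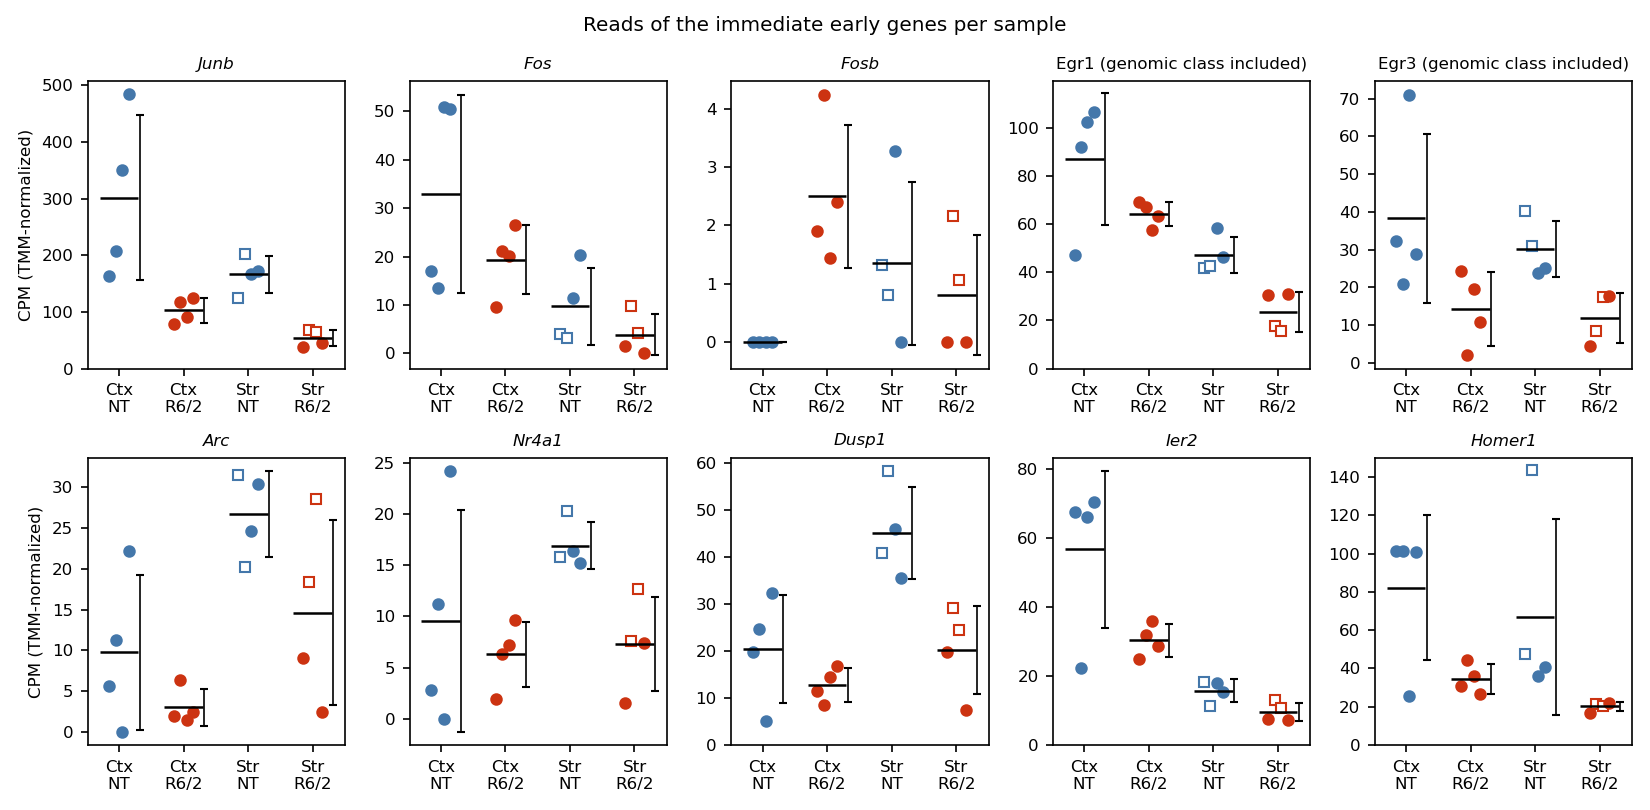
Level of each gene (CPM, y axis, linear, with a scale for each gene) in the 16 samples by region and genotype (x axis). Circles are samples of 1 count file and open squares samples of 2, lines are group means and bars 1 SD (n = 4). Junb separates the genotypes in both regions, whereas Homer1 in the cortex overlaps through 1 low NT sample at 25.4 CPM.

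In the striatum, Junb, Homer1 and Dusp1 were lower in R6/2, and Egr1 and Egr3 joined them once the genomic class was counted. Junb was at 124, 203, 167 and 173 CPM in NT and at 38.0, 68.1, 64.7 and 44.2 CPM in R6/2, which is 166.6 ± 32.6 against 53.7 ± 14.9 (SD, n = 4). No R6/2 sample reached the lowest NT sample. The difference was −1.63 (SE 0.21, adjusted p = 9.1e-04, edgeR quasi-likelihood test with Benjamini-Hochberg adjustment). It passed in all 8 fits that left out 1 sample, at −1.84 to −1.47.

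Homer1 was at 47.3, 143.5, 36.1 and 40.6 CPM in the NT striatum and at 16.7, 21.6, 20.1 and 22.1 CPM in the R6/2 striatum. The groups did not overlap, and NT 2 alone stood far above the rest, with 177 of the 243 NT reads. The difference was −1.83 (SE 0.39, edgeR adjusted p = 0.018), and without NT 2 it was −1.09 (adjusted p = 0.038). It did not pass without R6/2 2 or without R6/2 3 (adjusted p = 0.090 and 0.094).

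Dusp1, the MAP kinase phosphatase, was at 40.8, 58.4, 46.0 and 35.6 CPM in NT and at 19.7, 29.2, 24.4 and 7.37 CPM in R6/2. Again no sample of one genotype lay in the range of the other. The difference was −1.13 (SE 0.27, edgeR adjusted p = 0.032), a call that was lost in 6 of the 8 fits without 1 sample, with adjusted p between 0.071 and 0.12. Arc was at 31.6, 20.3, 24.6 and 30.5 CPM in NT and at 9.11, 18.4, 28.6 and 2.46 CPM in R6/2. R6/2 3 lay within the NT range, and the difference of −0.66 (SE 0.39, edgeR adjusted p = 0.43) did not pass.

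Of the 4 genes that passed the filter, 3 were thus lower, beside 3.84% of the 7658 genes tested. The same 3 were lower without overlap, as were 4.28% of all genes. With the genomic class added, 5 of 6 were lower, against 4.83% of 8718 genes, and 4 of the 6 without overlap, against 5.16%. Dusp1 was then −0.98 with an adjusted p of 0.044, and Arc, the sixth, was −0.75 with 0.28. These counts rest on the term for the number of count files: without it, 39 genes were lower (0.509% of those tested), and Junb was the one immediate early gene among them (−1.65, edgeR adjusted p = 0.032).

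Egr1, counted with the genomic class, was at 41.6, 42.7, 58.2 and 46.2 CPM in the NT striatum and at 30.7, 17.6, 15.4 and 30.7 CPM in R6/2. All R6/2 samples were below all NT samples. The difference was −1.10 (SE 0.22, edgeR adjusted p = 0.0079). Egr3, counted in the same way, was at 40.3, 31.0, 23.9 and 25.2 CPM in NT and at 4.39, 8.27, 17.4 and 17.6 CPM in R6/2. Its genotypes did not overlap either, and the difference was −1.39 (SE 0.35, edgeR adjusted p = 0.027). The Egr3 call was lost in 4 of 8 fits without 1 sample, and that of Egr1 in none. Outside the genomic class, Egr1 had 4 reads in the NT and 6 in the R6/2 striatum, and Egr3 had 8 and 5. Both were too few to compare, and the origin of the genomic reads was not tested.

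Nr4a1, Ier2, Fos and Fosb did not pass the filter in the striatum. Nr4a1 was at 15.8, 20.3, 16.4 and 15.2 CPM in NT, from 12, 25, 10 and 3 reads, and at 1.52, 7.57, 12.7 and 7.37 CPM in R6/2, from 1, 7, 12 and 3 reads. Its genotypes did not overlap, and with no filter on low counts the difference of −1.14 (SE 0.42, edgeR adjusted p = 0.13) did not pass. Ier2 was at 15.8 ± 3.27 CPM in NT and 9.63 ± 2.67 in R6/2 (SD, n = 4), with overlapping samples. Fos had 3, 4, 7 and 4 reads against 1, 9, 4 and 0, and Fosb never more than 2 reads in a sample.

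**Figure D3:**
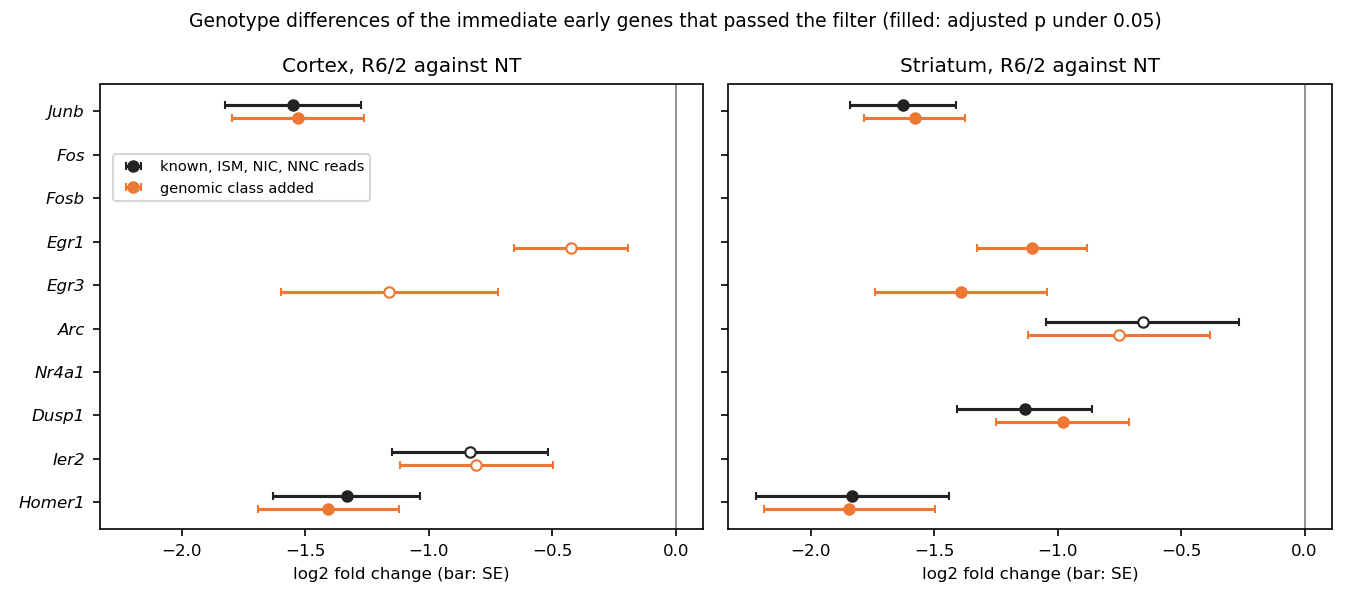
Genotype difference (log2 fold change of R6/2 over NT, x axis, with bars of 1 SE from the edgeR fit) of each immediate early gene that passed the filter on low counts (y axis), in the cortex (left) and striatum (right). Black is the count of the known, ISM, NIC and NNC classes and orange adds the genomic class, and filled points passed an adjusted p of 0.05. All points lie below 0, and Junb is filled in both regions at −1.55 and −1.63.

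Because each genotype had 2 striatal samples with 1 count file and 2 with 2, the difference could also be read within each kind. Junb was lower in R6/2 in both, by −2.05 among samples of 1 file and −1.30 among samples of 2 (log2 ratio of mean CPM, 2 samples a group, no test). Homer1 (−0.98 and −2.19), Dusp1 (−1.59 and −0.89), Nr4a1 (−1.83 and −0.83), Egr1 (−0.76 and −1.35) and Egr3 (−1.16 and −1.47) were lower in both as well. So was Ier2 (−1.15 and −0.34). Among samples of 1 file, Nr4a1 had 10 and 3 reads in NT and 1 and 3 in R6/2. Arc was lower among samples of 1 file (−2.25) and close to level among samples of 2 (−0.14). Fos had 7 and 4 reads in NT and 1 and 0 in R6/2 among samples of 1 file, and 3 and 4 against 9 and 4 among samples of 2, too few for a ratio. The 2-file samples were also the deeper ones, with 917832 to 1496196 reads against 317050 to 811470, and held less of the genomic class (5.30 to 6.07% against 8.71 to 12.2%). Mitochondrial genes took 0.408 to 0.851% of their annotated and spliced reads, against 1.41 to 3.27% in the 1-file samples and 0.331 to 0.575% in the cortex. Their mean isoform length per read was 2125 to 2197 nt, against 1589 to 1840 nt in the 1-file samples and 1821 to 2068 nt in the cortex. The part of these differences in the comparisons within the striatum and between the regions was not tested. The labels speak of the 2 files as replicates of a sample and do not say what separates them.

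**Figure D4:**
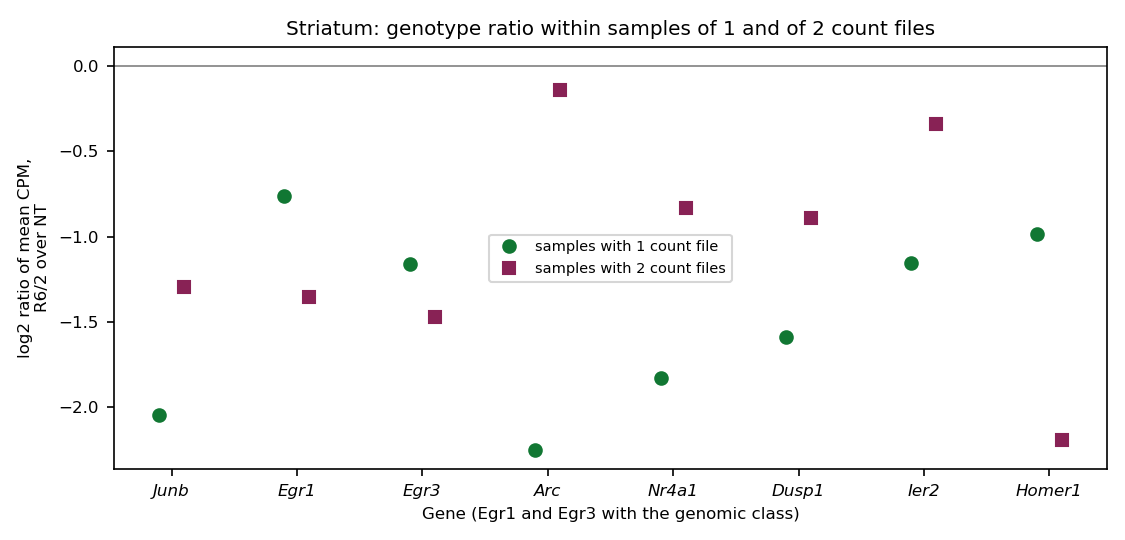
Genotype difference in the striatum (log2 ratio of mean CPM, R6/2 over NT, y axis) for each gene (x axis, Fos and Fosb left out for few reads), among samples of 1 count file (circles) and of 2 (squares), each from 2 samples a genotype. Junb, Egr1, Egr3, Nr4a1, Dusp1, Ier2 and Homer1 are below 0 in both kinds, with no test. Arc is near 0 among samples of 2 files (−0.14).

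Markers of the cells in these samples also differed between genotypes. The summed level of the 9 markers of striatal projection neurons was 10530 to 14440 CPM in the NT striatum and 1973 to 3412 CPM in the R6/2 striatum, and 7 of the 9 were called lower. Beside the marker counts in this paragraph, 3.84% of all genes tested were called lower in the R6/2 striatum and 2.81% in the R6/2 cortex. In the cortex the same sum was 391.5 to 487.6 CPM against 99.7 to 135.7 CPM, and the 8 markers of cortical excitatory neurons summed to 401.6 to 603.6 CPM against 189.9 to 246.1 CPM. Lamp5 carried that second sum, at 269.5 to 423.1 against 72.1 to 99.7 CPM, and was the 1 of 3 tested that was called lower. The other 7 summed to 132.2 to 180.5 against 117.8 to 154.5 CPM and overlapped, and Slc17a7 (−0.55, edgeR adjusted p = 0.39) and Neurod6 (−0.13, adjusted p = 0.83) did not pass. Lamp5 was not confined to the cortex, and was at 136.7 to 187.9 CPM in the NT striatum. The other 7 summed to 5.08 to 51.3 CPM there. The 6 astrocyte markers were lower in sum without overlap in both regions (1971 to 3903 against 1317 to 1845 CPM in the striatum, 2293 to 3613 against 1343 to 1834 CPM in the cortex), but Aldoc held most of each sum and was the 1 gene of 6 called in each region. Without Aldoc, the other 5 overlapped in the striatum (375.9 to 1023 against 459.5 to 767.3 CPM) and did not overlap in the cortex (808.4 to 1154 against 584.5 to 728.4 CPM). Lamp5 and Aldoc were singled out after their values were seen. The sums for oligodendrocytes, microglia, endothelial cells and choroid plexus overlapped between genotypes in both regions, and 1 of their genes, an oligodendrocyte marker in the striatum, was called. In 1 NT striatum the choroid plexus sum reached 9626 CPM, against 55.2 CPM in the lowest. The part of these shifts in the results for the immediate early genes was not tested.

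Between regions, Ier2 was lower in the striatum than in the cortex in mice of both genotypes, and so was Junb in the main fits. In NT mice 3 of the 6 genes tested, Ier2, Junb and Fos, were lower in the striatum, beside 17.6% of the 7390 genes tested. Ier2 had a mean of 56.7 ± 22.9 CPM in the NT cortex and 15.8 ± 3.27 in the NT striatum (SD, n = 4), a difference of −1.93 (SE 0.42, edgeR adjusted p = 9.9e-04). The difference was −1.0 for Junb (SE 0.31, edgeR adjusted p = 0.015) and −2.0 for Fos (SE 0.72, edgeR adjusted p = 0.033). The Junb call was lost without Cortex NT 4 (−0.63, adjusted p = 0.099) and without Cortex R6/2 2 (−0.79, adjusted p = 0.057). The Fos values ran from 13.5 to 50.8 CPM in the NT cortex and from 3.24 to 20.3 CPM in the NT striatum, so they overlapped, and that call was lost in 6 of 16 fits without 1 sample and with the genomic class added (−1.69, adjusted p = 0.052). Homer1 (−0.88, adjusted p = 0.11), Dusp1 (0.73, adjusted p = 0.15) and Arc (0.65, adjusted p = 0.42) did not pass. With the genomic class added, Egr1 (−0.55, adjusted p = 0.11) and Egr3 (−0.46, adjusted p = 0.51) did not pass either, and Nr4a1 and Fosb did not reach the filter between regions. Without Striatum NT 2, Homer1 was lower in the striatum, at −1.19 (adjusted p = 0.0059).

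In R6/2 mice, 3 of 6 were likewise lower in the striatum, beside 14.3% of all genes. These were Ier2 (−1.66, SE 0.44, edgeR adjusted p = 0.0063), Junb (−1.05, SE 0.35, adjusted p = 0.026) and Homer1 (−1.36, SE 0.48, adjusted p = 0.037). Fos (−1.78, adjusted p = 0.080) and Dusp1 (0.44, adjusted p = 0.46) did not pass. The Junb call was lost in 5 of 16 fits without 1 sample. With no term for the number of count files, and with the first count file only, Ier2 was the one gene called lower. Every cortical sample had 1 count file. The Homer1 call did not hold when the genomic class was added (−0.94, adjusted p = 0.12) or in 10 of 16 fits without 1 sample. Arc ran the other way. It was at 1.91, 6.37, 1.44 and 2.40 CPM in the R6/2 cortex, each from 1 to 3 reads, and at 2.46 to 28.6 CPM in the R6/2 striatum, a difference of 1.97 (SE 0.78, edgeR adjusted p = 0.055). With the genomic class added, 4 of 8 genes passed. Egr1 (−1.21, SE 0.27, edgeR adjusted p = 0.0015), Junb and Ier2 were lower, against 11.1% of 8447 genes, and Arc was higher (1.94, SE 0.64, adjusted p = 0.024), against 14.3%. Egr3 was at −0.65 (adjusted p = 0.43).

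The order of the group means, for each gene on its own, was the highest in the NT cortex for Junb, Fos, Ier2, Homer1, Egr1 and Egr3, and the lowest in the R6/2 striatum for the same genes. Arc, Dusp1 and Nr4a1 had their highest mean in the NT striatum (26.7, 45.2 and 16.9 CPM) and their lowest in the R6/2 cortex (3.03, 12.8 and 6.28 CPM). Many neighbours in these orders did not differ beyond their spread. The R6/2 cortex and the NT striatum, for example, overlapped for Fos, Homer1 and Egr3.

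The genotype difference was not shown to depend on the region. The interaction of region and genotype was called for 3 of 7390 genes (0.0406%) and for none of the 6 immediate early genes, by edgeR or by DESeq2, and none of the 6 had an unadjusted p under 0.05 in either. Its values were −0.05 for Junb (SE 0.40), −0.48 for Homer1 (SE 0.53), −0.29 for Dusp1 (SE 0.50), 0.27 for Ier2 (SE 0.51), 0.21 for Fos (SE 0.91) and 1.31 for Arc (SE 0.91). With the genomic class added, it was −0.66 for Egr1 (SE 0.33, edgeR adjusted p = 0.755) and −0.20 for Egr3 (SE 0.63, adjusted p = 0.998). Nr4a1 and Fosb did not reach the filter. The SEs of Fos and Arc leave room for large differences between the regions. The Homer1 value turned to 0.26 without Striatum NT 2.

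Which isoforms the reads came from was the next question. Junb and Ier2 have no introns, and all 1317 Junb and 219 Ier2 reads of the main classes were their single known isoform. Dusp1 was read mostly as the 4-exon ENSMUST00000025025 (244 reads) and Nr4a1 mostly as the 7-exon ENSMUST00000023779 (80 reads). Fos was read as the 4-exon coding ENSMUST00000021674 in 54 of 84 cortical reads (64.3%, Wilson interval 53.6 to 73.7) and 18 of 31 striatal reads (58.1%, 40.8 to 73.6). The other Fos reads were 2 shorter isoforms annotated as processed transcripts, ENSMUST00000136122 (21.4% and 29.0%) and ENSMUST00000140525 (14.3% and 12.9%). Arc reads split between ENSMUST00000023268 (71 of 115 striatal reads, 61.7%, 52.6 to 70.1) and ENSMUST00000110009 (the other 44), 2 coding isoforms of 3 exons and of the same coding length. Of the 13 spliced striatal Egr3 reads, 5 were the known isoform and 5 a single isoform with a new splice site.

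Shifts between these isoforms were not detected at this depth. In the cortex Fos was the one gene with enough reads for the test of isoform usage, and it did not pass (adjusted p = 1, edgeR diffSpliceDGE), where 0.360% of 3058 genes did. In the striatum Arc was the one (edgeR adjusted p = 1), where 0.451% of 4437 genes passed. Neither had an unadjusted p under 0.05 in any alternative, where 170 and 299 genes did in the cortex and striatum, and a gene-level F test called neither as well. With ISM isoforms added, Homer1 could be tested, and did not pass in either region (edgeR adjusted p = 1 in the cortex and 0.9999 in the striatum).

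Homer1 exists in long forms, with a coiled coil that joins Homer proteins to each other, and in short forms such as Homer1a, which lack it and are made after activity from the same promoter. Known isoforms were 111 of the 511 Homer1 reads, and 101 of those were the long 10-exon ENSMUST00000080127 (24 in the cortex and 77 in the striatum). Short forms took 6 of 68 known Homer1 reads in the NT striatum (8.82%, Wilson interval 4.11 to 17.9): 4 of Homer1a (ENSMUST00000102752, 5 exons) and 1 each of ENSMUST00000109492 and ENSMUST00000109493. They took 0 of 17 in the R6/2 striatum, which allows up to 18.4%, and 0 of 14 and 0 of 12 in the NT and R6/2 cortex. A sample in each region had no known Homer1 read, so that share was not tested. Over all reads of the 4 classes, the mean share in the striatum was 2.40% in NT and 0 in R6/2 (2-sided exact permutation test over 70 arrangements, p = 0.143, n = 4). Fosb has a spliced form, deltaFosB, that lacks the end of the protein and builds up with repeated stimulation. It was 1 of the 5 known Fosb reads, in Striatum NT 3, and was not tested.

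The largest group of Homer1 reads was a single ISM isoform of 8 exons and 2372 nt, which begins as a known Homer1 isoform does and stops before its last exons. In the long ENSMUST00000080127 the first 8 exons add up to 1330 nt. This isoform was singled out after its values were seen, and it is described with no test of its own. It held 226 of the 511 Homer1 reads, 129 in the cortex and 97 in the striatum. A second ISM isoform, of 1 exon and 2089 nt, held 60 reads.

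In the NT cortex the 8-exon isoform took 77.8, 71.1, 60 and 66% of the Homer1 reads, and in the R6/2 cortex 56.3, 52.4, 48.0 and 9.09%. These shares rest on few reads in some samples. NT 3, the lowest NT share, had 5 Homer1 reads and an interval of 23.1 to 88.2%. R6/2 1, the highest R6/2 share, had 16 reads and an interval of 33.2 to 76.9%. For R6/2 4, with 11 reads, it was 1.62 to 37.7%. In the striatum it took 8.33, 47.5, 13.6 and 12.5% in NT and 18.2, 10.0, 5.26 and 11.1% in R6/2, so that Striatum NT 2 stood alone.

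Levels were divided in the same way, with no test of the 8-exon isoform itself. The 8-exon isoform was at 58.2 ± 29.1 CPM in the NT and 15.1 ± 8.92 CPM in the R6/2 cortex, and all other Homer1 reads at 24.1 ± 10.4 and 19.4 ± 4.53 CPM (SD, n = 4). In the striatum the other reads were at 31.2 to 75.4 CPM in NT and 13.7 to 19.7 CPM in R6/2. Homer1 without the 8-exon isoform was also fitted, after the values were seen. In the cortex, with no filter on low counts, its genotype difference was −0.41 (SE 0.38, edgeR adjusted p = 0.67) and did not pass. In the striatum it was −1.455 (SE 0.28, edgeR adjusted p = 0.0097).

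**Figure D5:**
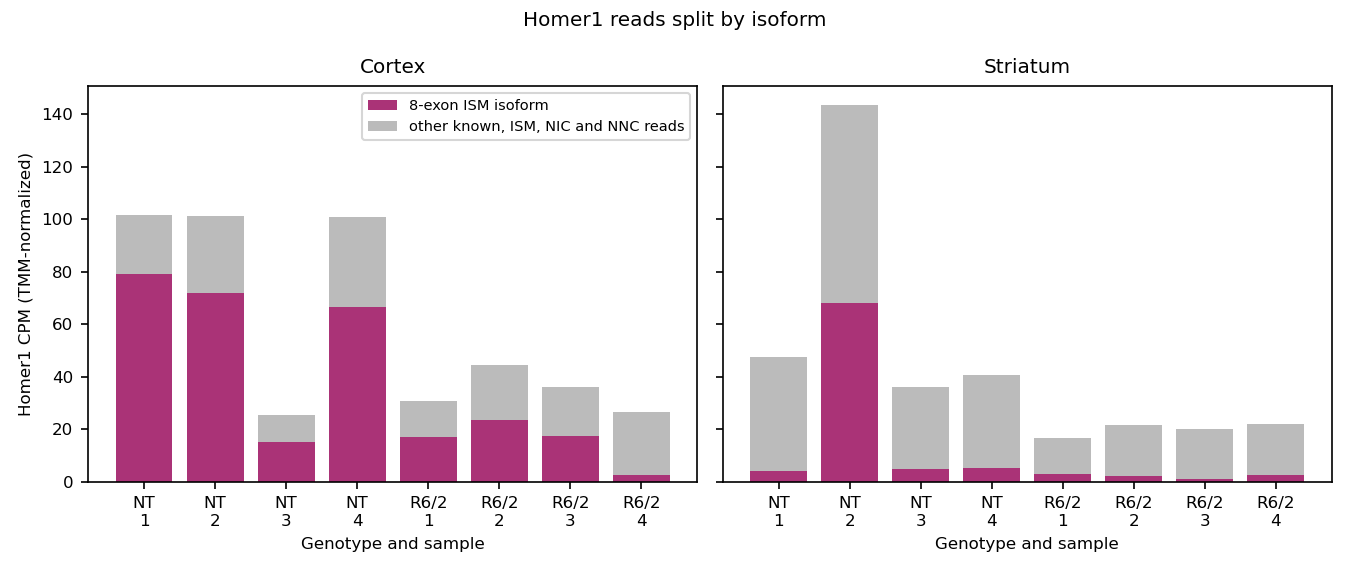
Homer1 level (CPM, y axis, stacked bars from 0) in each sample (x axis) of the cortex (left) and striatum (right), divided into the 8-exon ISM isoform (purple) and all other known, ISM, NIC and NNC reads (grey). The purple part is tall in 3 of the 4 NT cortices and in Striatum NT 2 (68.1 CPM), and the grey part is lower in every R6/2 striatum than in any NT striatum.

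Around these genes, other parts of the activity response were measured by lists drawn up from their known roles. Among 15 other immediate early transcription factors, 5 were tested in each region and 1 in each was lower: Jund, an AP-1 subunit, in the cortex (−1.28, SE 0.28, edgeR adjusted p = 0.013) and Klf10 in the striatum (−1.34, SE 0.31, adjusted p = 0.026). The medians of the tested list were −0.30 and −0.64 beside 0.015 and −0.0022 for all genes. For this list and those below, the share of all genes tested called lower was 2.81% in the cortex and 3.84% in the striatum. Among 19 other early-induced effectors, 2 of 7 were lower in the cortex, Ier5 (−1.72, SE 0.23, edgeR adjusted p = 1.6e-04) and the kinase Sgk1 (−1.08, SE 0.25, adjusted p = 0.016), with a list median of −0.26. In the striatum 5 of 9 were lower, led by Sgk1 (−1.54, SE 0.28, adjusted p = 0.0077), Gadd45g (−1.36, SE 0.32, adjusted p = 0.029) and Rgs2, a regulator of G protein signalling (−1.22, SE 0.26, adjusted p = 0.019), with a median of −0.998. The last 2 of these 5 were the ERK phosphatase Dusp6 and the kinase Plk2.

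Of 8 late response genes, which follow the immediate early factors, 1 of 5 was lower in the cortex, Nrn1 (−0.91, SE 0.24, edgeR adjusted p = 0.036, list median −0.64), and 0 of 2 in the striatum (median 0.18). By edgeR neither of these 2, Scg2 and Syt4, was called, and Syt4 had an unadjusted p of 0.023, towards higher in R6/2. Of 14 upstream kinases and transcription factors, 0 of 7 were called in the cortex (median −0.21, with 2 at an unadjusted p under 0.05, Mapk3 and Camk4) and 1 of 9 in the striatum (median −0.04), the calcium-dependent kinase Camk4, at −1.36 (SE 0.20, edgeR adjusted p = 0.0017). Of 9 Homer relatives and partners, 2 of 4 were lower in the cortex (median −0.82): Homer2 (−1.14, SE 0.26, adjusted p = 0.015) and the IP3 receptor Itpr1 (−0.99, SE 0.19, adjusted p = 0.0038). In the striatum 2 of 5 were lower (median −0.91), Itpr1 (−1.26, SE 0.16, adjusted p = 8.9e-04) and the glutamate receptor Grm5 (−0.91, SE 0.21, adjusted p = 0.027). No gene of these 5 lists was called higher in either region.

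The genes whose level followed the immediate early genes most closely were found by the correlation of log2 CPM with their mean over the 8 samples of a region, with no test. In the cortex, with the 3 that passed the filter and 6118 candidates, these were Rapgef2 (Pearson r = 0.983), Rilpl1 (0.954), Doc2a (0.950), Cryzl1 (0.948) and Kctd6 (0.947). In the striatum, with 4 and 7653 candidates, they were Gpr83 (0.990), Usp2 (0.988), Gpr6 (0.971), Zbtb7a (0.969) and Ccm2 (0.969). The genotype difference and, in the striatum, the split by count files enter all of these values, so they describe a common level and not a shared control.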

How the data were processed

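Cortex and striatum of male R6/2 and NT mice were measured by PacBio Iso-seq, with 4 samples in each group. RNA was treated with a 5′-phosphate-dependent exonuclease and cDNA was amplified by PCR before sequencing. Full-length reads were mapped to mm10 with minimap2 (2.17-r941), corrected with TranscriptClean and assigned to isoforms with TALON (version 5). The authors deposited unfiltered counts of reads per isoform, 20 count files for 16 samples. The files of a sample were summed, and no column was left unused (0).

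The isoform counts of a gene were added over the known, ISM, NIC and NNC classes. Genes were tested with edgeR 4.0.16 (R 4.3.3): TMM, filterByExpr, quasi-likelihood tests and Benjamini-Hochberg adjustment, with a threshold of 0.05. The striatal and 16-sample fits had a term for the number of count files. Log2 fold changes carry edgeR's default prior count, and the log2 CPM used for correlations carry a prior count of 2. CPM in the text are the values normalized with TMM, and a gene of few reads passes the filter mainly through the group where it is high. Isoform usage was tested with diffSpliceDGE on known, NIC and NNC isoforms of at least 10 reads. Shares carry 95% Wilson intervals. Scripts were tested on simulated data. Alternatives were DESeq2 1.42.0, upper-quartile normalization, no filter, other classes, the first count file, no term for the files, a replicate block and leaving out each sample. The study describes the samples of a group as biological replicates. Whether same-numbered cortex and striatum samples share a mouse is not given in the sources used here.

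All 10 genes are named in each comparison, and from each of the 5 pathway lists the 3 largest changes that passed. The 5 genes most alike had a mean of at least 10 CPM. Isoforms of at least 10% of a gene's known, NIC and NNC reads are named. The genes, lists and tests were chosen with earlier results of these data known. Gene and isoform coordinates are from GENCODE M21. Python 3.11.15, scipy 1.17.1 and matplotlib 3.10.9 were used for shares, exact tests and plots.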

Additional observations from a re-analysis of the deposited data

Results flagged for a closer look

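In 3 of 39 groups of 4 samples, a single sample stood apart from the others by Dixon's ratio (the gap to the nearest sample over the range, above its 95% critical value), where chance gives 1.95. Ier2 was lowest in Cortex NT 2 (ratio 0.906), at 22.5 CPM against 66.1 to 70.6 in the other 3. Homer1 was highest in Striatum NT 2 (0.896), at 143.5 CPM against 36.1 to 47.3, and lowest in Cortex NT 3 (0.991), at 25.4 CPM against 100.9 to 101.5. Cortex NT 3 was also the shallowest cortical sample, with 252885 reads, of which 5 were Homer1.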

How the results depend on the processing

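Junb kept its direction and its call in both genotype comparisons under all alternatives run. In the cortex 2 immediate early genes were called, and 1 with ISM isoforms left out, with 1 to 2 when a sample was left out (1 without NT 4, R6/2 3 or R6/2 4). In the striatum 3 were called, against 1 with ISM left out, 5 with the genomic class added and 1 with no term for the count files, and 1 to 3 when a sample was left out (1 without R6/2 2 or R6/2 3). With the genomic class, 5 were called, against 1 with no files term and 3 to 5 without 1 sample (3 without NT 3, R6/2 1 or R6/2 2). Between regions 3 were called in NT, with 1 to 4 without 1 sample (1 without Cortex NT 4 or Cortex R6/2 2), and 3 in R6/2, with 5 under no filter and 1 to 4 without 1 sample (1 without Striatum R6/2 1). With no files term, and with the first count file, 2 were lower in the striatum in NT. In R6/2, 1 was lower and 1 higher under either setting. The Homer1 interaction, −0.48, was 0.26 without Striatum NT 2 and −0.79 to 0.26 over all samples left out. The short Homer1 share of 8.82% in the NT striatum was 2.47% with all classes in the denominator and 7.81 to 10.0% without 1 sample, and the deltaFosB share of 20% ran from 0 to 25.0%.

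Counts over all genes moved more. In the cortex 200 genes were called (172 lower), and 95 with ISM left out. Without 1 sample the cortical count ran from 95 (86 lower, without R6/2 3) to 305 (223 lower, without NT 1), and was 123, 118 and 133 without R6/2 1, R6/2 2 and R6/2 4. In the striatum 332 were called (294 lower), against 606 with no filter, 39 with no files term and 181 with the first count file. Without 1 sample it ran from 143 (131 lower, without R6/2 2) to 391 (339 lower, without NT 4), with 217 and 198 without NT 2 and NT 3 and 179, 188 and 182 without R6/2 1, R6/2 3 and R6/2 4. Between regions 2467 genes in NT and 2014 in R6/2 became 1101 and 840 with no files term. The genes lower in the striatum, 1302 in NT and 1058 in R6/2, became 717 and 636 without Cortex NT 2 and 795 and 513 without Cortex R6/2 2, and 828 in NT without Striatum NT 3. A replicate block gave 205 genes and 2 immediate early genes in the cortex and 185 and 2 in the striatum, where Dusp1 did not pass (adjusted p = 0.064), and with the genomic class Egr3 passed in the cortex (−1.40, adjusted p = 0.033). Replicate numbers are taken as names: deviations of same-numbered samples correlated at −0.0726 to 0.174 between genotypes in the cortex and −0.571 to 0.618 in the striatum. Between cortex and striatum they correlated at −0.23, 0.224, 0.116 and −0.171 for NT 1 to 4 and at 0.399, 0.189, 0.376 and −0.04 for R6/2 1 to 4. NT 2 and 3 and R6/2 1, 2 and 3 were above the highest correlation with another number, and the others below it. A permutation within the count files was not run for isoform shares, since some samples had no known read. Depth limits Fosb and, in the cortex, Arc, Nr4a1 and Dusp1, which had 0 to 16 reads a sample.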
